A study of Xenopus tropicalis with 52 samples.

Results

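The first zygotic transcripts of *Xenopus tropicalis* were followed in polyA+ RNA from early to mid blastula stages, in 7 of the 52 libraries of the series. All 7 belong to Series 2, whose whole embryos came from eggs of a single female and were collected in pools at regular intervals, timed in hours post fertilisation (hpf). The later window held 4 libraries, from 4.0 hpf, from 4.5 hpf (2 libraries, given by the study as biological replicates of the same clutch) and from 5.0 hpf, and the earlier window held 3 libraries, from 2.5, 3.0 and 3.5 hpf. The libraries were picked by series, library type and labelled time. The labels name no treatment, strain or allele for either group, and the groups differ by labelled time.

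A frog egg carries a large store of maternal RNA, and its first cleavages run quickly with very little transcription. At the mid-blastula transition (MBT) the cell cycle lengthens and transcription of the embryo's genome becomes general, although some genes are switched on earlier. Maternal mRNAs also gain or lose their polyA tails in this period, so a rise in polyA+ RNA can come from new RNA or from a longer tail on old RNA. These cannot be told apart within polyA+ libraries. Series 3 also has Ribo-Zero libraries, made by depleting ribosomal RNA rather than by selecting tails, and these are set beside the polyA+ results.

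Total counts per library ranged from 25951427 to 32290313 (median 30072123), and ribosomal RNA took between 0.0932 and 0.528% of them. Values are given as normalised reads, which are counts per 25000000 non-ribosomal counts, so that 1 count was worth between 0.776 and 0.968 normalised reads. A count of 0 allows up to 3 counts, or 2.33 to 2.91 normalised reads, for counting error only. In the 4.0-5.0 hpf libraries between 12517 and 12726 genes had at least 10 counts, against 12182 to 12408 genes in the 2.5-3.5 hpf libraries. Genes that mark cell types a blastula is not known to hold were checked by list. Of 10 follicle and oviduct genes in the table none was tested, 4 were at 0 in all 7 libraries, and their summed level was 0 to 8.08 normalised reads at 4.0-5.0 hpf and 2.35 to 4.07 at 2.5-3.5 hpf. The 20 blood and liver genes summed to 1085.5 to 1347 normalised reads at 4.0-5.0 hpf and 1173 to 1277 at 2.5-3.5 hpf, the 19 muscle and neuron genes to 142 to 192 and 149 to 158, and 4 of each list were at 0 in all 7 libraries. None of the 3 and 6 members of these lists with enough counts was called.

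The comparison of both windows asked which polyA+ transcripts were gained or lost around the approach to the MBT. The study places the MBT of this clutch shortly before the last of these libraries, so that library lies at or past it. Only the 4.5 hpf libraries are replicates of 1 time, and the different times of a window stand in for replicates, so the spread within a window includes change with time and p-values measure the spread between these libraries of 1 clutch only. Of 12644 genes with enough counts, 2887 were higher at 4.0-5.0 hpf (22.8% of those tested) and 2477 were lower (19.6%) by edgeR's quasi-likelihood test at an adjusted p under 0.05. The median log2 fold change of all genes tested was 0.007. Scaling to library totals in place of TMM factors moved this median by 0.121 and turned the split into 3549 higher and 1564 lower genes, so that the higher genes made up 69.4% of the calls against 53.8% with TMM. All 2887 higher genes were called higher with either scaling, and 1564 of the 2477 lower genes were called lower with either. Without the 3.0 hpf library 1923 genes were higher and 1524 lower, and without the 2.5 hpf library 1621 were lower.

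The rising genes were divided at a set limit by their level before 4.0 hpf. A mean below 10 normalised reads at 2.5-3.5 hpf was found for 165 of them, called near absent here, and 2722 were present at higher levels. The near-absent genes had a median log2 fold change of 2.85, and in 137 of the 165 every later library lay above every earlier one. This was so for 2788 of all 2887 higher genes and for 31.1% of all genes tested, and nothing is read from it, since the genes were chosen on the same libraries. The present genes had a median log2 fold change of 0.74. Genes with so low an earlier level mostly pass the filter on counts through the later libraries, so a larger fold change is built into the near-absent set. Of the 165 genes 100 carry a gene symbol. A count of 80 near-absent genes had a log2 fold change of 3 or more, a limit set after the values were seen, and these are called steep risers below. The count of near-absent risers was 78, 84, 92 and 94 without the library of 2.5 hpf, of 3.0 hpf, of 5.0 hpf and the second of 4.5 hpf, and that of steep risers was 25 without 5.0 hpf and 33 and 35 without either 4.5 hpf library, where fewer genes also reached 10 counts in 3 libraries.

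**Figure D1:**
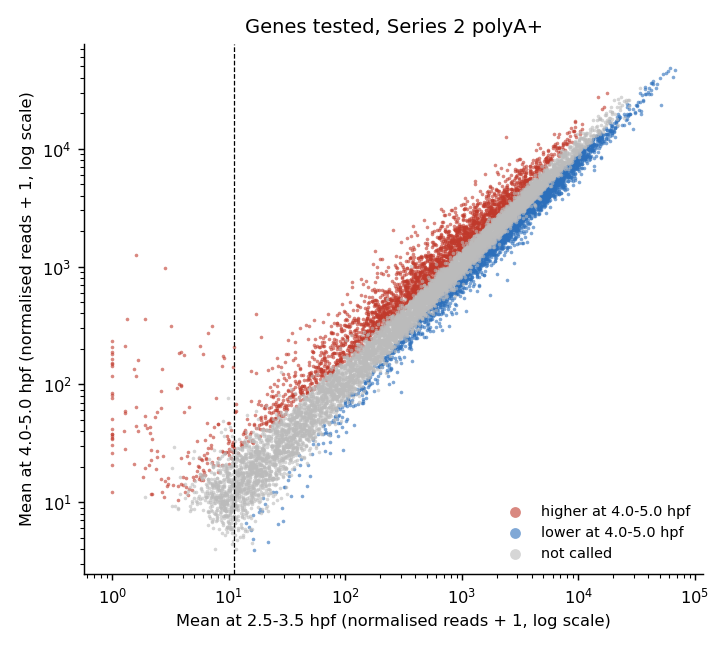
Mean normalised reads plus 1 of every gene tested at 4.0-5.0 hpf (vertical, log scale) against the mean at 2.5-3.5 hpf (horizontal, log scale), with 2887 higher genes in red, 2477 lower genes in blue and the others in grey. The dashed line marks the near-absent limit of 10 normalised reads, and the 165 near-absent risers lie to its left.

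The 12 near-absent risers with a symbol, no overlap and the highest later mean are given first. *zic1* (Xetrov72001099), a zinc finger transcription factor of the early neural plate, had 10.1 normalised reads at 4.0 hpf, 146 and 202 at 4.5 hpf and 1080 at 5.0 hpf, against 0, 0.784 and 1.94 at 2.5, 3.0 and 3.5 hpf. All later libraries lay above all earlier ones, and summed counts were 403-fold higher (exact 95% interval 138 to 1955, fitted log2 fold change 8.43 ± 1.83, adjusted p = 0.00563). Values after ± are approximate errors worked back from the test statistic, here and below. *irx1* (Xetrov72034208), an Iroquois homeodomain factor, had 10.1, 117, 69.1 and 449 normalised reads at 4.0, 4.5, 4.5 and 5.0 hpf, against 0, 0 and 1.94 at 2.5, 3.0 and 3.5 hpf (271-fold, exact 95% interval 74.9 to 2245.5, adjusted p = 0.00453). Both genes thus had a handful of reads at most until 3.5 hpf and had most of their reads at 5.0 hpf.

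A set of 5 of these 12 genes had no count at all in the 3 earlier libraries, so only lower bounds of their rise are known, taken against 3 counts over that window. *prdm9* (Xetrov72034317), whose mammalian namesake is a histone methyltransferase, had 6.21, 113, 92.4 and 609 normalised reads at 4.0, 4.5, 4.5 and 5.0 hpf and was at least 230-fold higher (adjusted p = 0.0108). *admp* (Xetrov72021109), a BMP-like ligand of the organizer, had 4.65, 46.3, 89.9 and 582 normalised reads and was at least 202-fold higher (adjusted p = 0.0157). *mix1* (Xetrov72001388), a homeobox factor of mesoderm and endoderm, had 3.88, 55.8, 71.6 and 469 normalised reads and was at least 168-fold higher (adjusted p = 0.0142). Each of the 3 genes was lowest at 4.0 hpf and highest at 5.0 hpf, with the 4.5 hpf replicates between. *rhov* (Xetrov72014822), a small GTPase, had 0.776, 13.7, 26.6 and 551 normalised reads and was at least 164-fold higher (adjusted p = 0.038). *eomes* (Xetrov72033738), a T-box factor of mesoderm, had 2.33, 17.2, 45.8 and 503 normalised reads and was at least 158-fold higher (adjusted p = 0.0272). For both the value at 5.0 hpf stood far above the other 3 later libraries, and leaving out single libraries or using limma raised the adjusted p past the threshold, to as much as 0.159 for *rhov* and 0.107 for *eomes*.

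The remaining 5 had a few reads before 4.0 hpf. *znf3* (Xetrov72034607), a zinc finger gene by name, had the earliest rise of the 12, with 64.4, 227, 283 and 676 normalised reads at 4.0, 4.5, 4.5 and 5.0 hpf against 4.88, 8.62 and 4.84 at 2.5, 3.0 and 3.5 hpf (log2 fold change 5.51 ± 0.82, adjusted p = 0.00144). *znf470* (Xetrov72036218), another zinc finger gene, had 31.0, 171, 187 and 688 normalised reads in the later libraries against 4.07, 7.84 and 4.84 in the earlier ones (log2 fold change 5.42 ± 1.03). *bmp4* (Xetrov72013980), the ventralising ligand, had 20.2, 88.4, 84.9 and 469 normalised reads against 6.51, 7.84 and 9.68 (log2 fold change 4.23 ± 1.00, adjusted p = 0.00824). In these 3 genes the rise had begun at 4.0 hpf. *rasd1* (Xetrov72005852), a Ras-related GTPase, had 9.31, 82.4, 132 and 521 normalised reads against 2.44, 2.35 and 3.87, and *stx19* (Xetrov72031064), a syntaxin, had 12.41, 53.2, 27.5 and 623 against 5.698, 6.27 and 2.91. Their log2 fold changes were 5.86 ± 1.31 and 4.98 ± 1.46 (adjusted p = 0.00625 and 0.0205), and *stx19* missed the threshold in 4 alternatives, with an adjusted p of up to 0.0987. *admp* missed it in 1, at 0.0507.

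**Figure D2:**
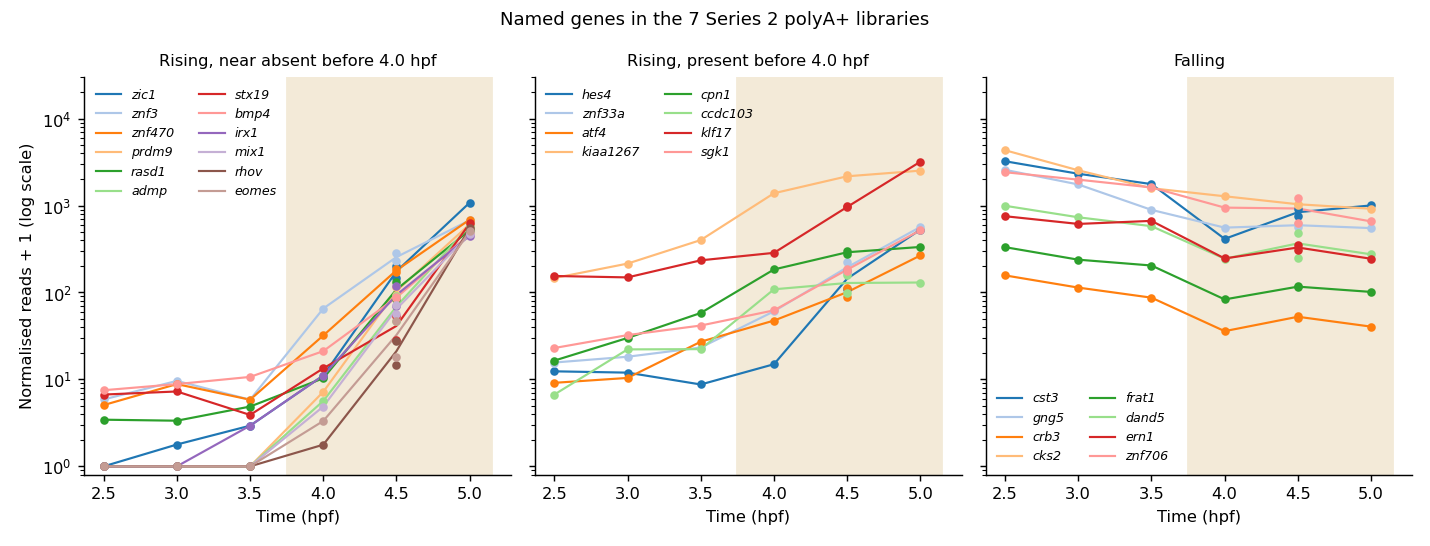
Normalised reads plus 1 (log scale) against time in the 7 Series 2 libraries for 12 near-absent risers, 8 risers present earlier and 8 fallers, with a point for each library, lines through the mean at each time and shading over 4.0-5.0 hpf. The near-absent risers climb steeply between 4.0 and 5.0 hpf, to 449 to 1080 normalised reads, whereas the fallers have their largest drop before 4.5 hpf.

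The most abundant of all near-absent risers carry no symbol in the files and were picked after their values were seen. The transcript 1012076177 had 4.65 normalised reads at 4.0 hpf, 250 and 278 at 4.5 hpf and 4487 at 5.0 hpf, against 0.814, 0 and 0.968 at 2.5, 3.0 and 3.5 hpf. The transcript 1012073524 had 63.6, 585, 666 and 2596 normalised reads at 4.0, 4.5, 4.5 and 5.0 hpf, against 0, 1.57 and 3.87. By summed counts the first was 2088-fold higher (exact 95% interval 578 to 17242) and the other 551-fold higher (253 to 1502). Both stayed high afterwards, with 46986 and 14220 normalised reads at 9.5 hpf.

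The time at which each near-absent riser was first seen was taken as the first time from which every library mean up to 5.0 hpf was at least 10 normalised reads. It was 3.0 hpf for 4 genes, 3.5 hpf for 16, 4.0 hpf for 61, 4.5 hpf for 70 and 5.0 hpf for 6, and 8 genes had no such time. The steep risers were mostly in the later classes, with 1 at 3.5 hpf, 21 at 4.0 hpf, 52 at 4.5 hpf and 6 at 5.0 hpf. A gene seen by 3.5 hpf has at least 10 normalised reads within the earlier window, which limits its fold change, so this order is partly set by the definitions. A limit of 5 normalised reads moved more genes to 3.5 hpf, 28 in all, and a limit of 20 left none there.

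**Figure D3:**
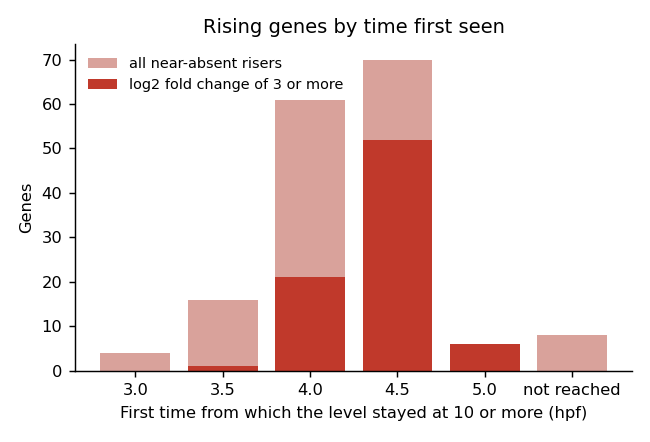
Number of near-absent rising genes by the first time from which they stayed at 10 normalised reads or more, for all 165 (light) and for the 80 with a log2 fold change of 3 or more (dark). The largest class is 4.5 hpf with 70 genes, 52 of them steep, and only 1 steep riser was seen by 3.5 hpf.

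The named genes seen at 3.5 hpf or before were low before 4.0 hpf. Of the 10 with the highest level at 4.0 hpf, *c17orf80* (Xetrov72016572) had 45.0, 32.6, 29.1 and 34.1 normalised reads at 4.0, 4.5, 4.5 and 5.0 hpf, against 9.77, 4.70 and 11.6 at 2.5, 3.0 and 3.5 hpf. *sh3yl1*, *tmem186*, *tnfaip8l2*, *zfp1*, *foxj2* and *rbm47* likewise lay near the limit of 10 before 4.0 hpf and between 17.5 and 62.6 afterwards. *nefl*, a neurofilament gene, had 27.2, 78.9, 49.1 and 144.5 normalised reads, against 3.26, 6.27 and 10.7, and *nkx6-2*, a homeobox gene, had 23.3, 27.5, 31.6 and 101 against 5.698, 7.05 and 13.6. Of those named here, all but *nefl* had a log2 fold change below 3, and *rbm47*, *tmem186*, *tnfaip8l2*, *zfp1* and *nkx6-2* missed the threshold in 1 to 3 alternatives.

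The earliest sign of the near-absent risers was sought in the counts themselves. Of the 165 genes 60 had at most 3 counts over 2.5 and 3.0 hpf, and 8 of these had more than 3 counts at 3.5 hpf. *nodal3.1* (Xetrov72039244), a Nodal-related signal of the organizer, had 47, 52, 125 and 231 counts at 4.0, 4.5, 4.5 and 5.0 hpf, against 0, 0 and 9 counts at 2.5, 3.0 and 3.5 hpf. *nodal6* (Xetrov72039327), a mesoderm-inducing Nodal ligand, had 43, 90, 119 and 213 counts against 0, 3 and 6, and *sox17a* (Xetrov72036248), an endodermal transcription factor, had 12, 20, 121 and 270 counts against 0, 0 and 8. The other 5 genes of this kind carry no symbol. A count of 0 in all 3 earlier libraries was found for 23 genes, of which 9 had more than 3 counts at 4.0 hpf and 5 were still at 0 there.

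The time course of each set was described by its steps. Steps between libraries were measured as log2 ratios after adding 10 normalised reads. Single genes differed between the 4.5 hpf replicates by a median absolute value of 0.199 over all genes tested and of 0.450 for the steep risers. The steps between 2.5 and 3.5 hpf and between 4.0 and 5.0 hpf span more time than that between 3.5 and 4.0 hpf. Their sizes are therefore not directly comparable. The steep risers had a median step of 0.36 between 3.5 and 4.0 hpf and of 3.55 between 4.0 and 5.0 hpf. The later step was larger in 77 of 80, and in 5810 of all 12644 genes tested. The 2722 present risers had a median step of 0.57 between 2.5 and 3.5 hpf, of 0.49 between 3.5 and 4.0 hpf and of 0.14 between 4.0 and 5.0 hpf, set beside a signed median of 0.04 between the 4.5 hpf replicates, and the step between 4.0 and 5.0 hpf was larger than that between 3.5 and 4.0 hpf in 611. The 85 near-absent genes with a log2 fold change under 3 had medians of 0.59 and 0.16 for the last 2 steps, and the later step was larger in 30 of them, so over all 165 near-absent risers it was larger in 107. In 65 of these 85 the first 4.5 hpf library lay above its replicate, as in 6239 of all 12644 genes tested. The 85 took 0.00995% of reads in that library and 0.00658% in its replicate, so they lean on the first. Mitochondrial RNA took 0.0140% of non-ribosomal counts in the first, the highest of all 7 libraries, and 0.00504% in its replicate. Ribosomal RNA took 0.382 and 0.142% of their total counts. A link to the 85 genes was not tested. The steep risers were chosen by a fold change from these same libraries, which favours a large late step.

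In reads the present risers were far the larger class. They took 19.5% of non-ribosomal reads at 4.0 hpf, 20.6 and 20.1% at 4.5 hpf and 21.1% at 5.0 hpf, against 9.65, 11.9 and 13.98% at 2.5, 3.0 and 3.5 hpf. The steep risers took 0.00316, 0.0201, 0.0210 and 0.115% in the later libraries, against 0.000413, 0.000473 and 0.000631% in the earlier ones. These sets were chosen from the same libraries, so their shares are descriptive. At later times, which took no part in the choice, the share of the steep risers reached 0.415% at 5.5 hpf and 1.02% at 8.5 hpf, while that of the present risers lay between 18.1 and 21.4%.

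The present risers with the largest rise included both shapes. *kiaa1267* (Xetrov72033436), known as a subunit gene of a histone acetyltransferase complex, had 1385, 2266, 2073 and 2520 normalised reads at 4.0, 4.5, 4.5 and 5.0 hpf, against 146, 214 and 400 at 2.5, 3.0 and 3.5 hpf (log2 fold change 2.92 ± 0.32, adjusted p = 0.000798). *cpn1* (Xetrov72025968), a carboxypeptidase, had 183, 302, 276 and 333 normalised reads against 15.5, 28.99 and 57.1 (2.92 ± 0.37), and *ccdc103* (Xetrov72017729), a gene of cilia, had 108, 159, 96.6 and 129 against 5.698, 21.2 and 21.3 (2.83 ± 0.39). These 3 genes made their largest step by 4.0 hpf. *hes4* (Xetrov72026732), a repressor of the Hes family, had 13.96, 177, 110 and 528 normalised reads against 11.4, 10.97 and 7.75 (log2 fold change 4.21 ± 1.01, adjusted p = 0.00877), and *klf17* (Xetrov72009945), a Krüppel-like factor, had 285, 950, 976 and 3193 against 154, 148 and 233 (2.802 ± 0.67, adjusted p = 0.00836). *znf33a* (Xetrov72036016), a zinc finger gene, had 59.7, 223, 165 and 566 against 14.7, 17.2 and 22.3 (3.69 ± 0.69). *atf4* (Xetrov72010301), a stress-response factor, had 46.5, 112, 88.2 and 266 against 8.14, 9.40 and 26.1, and *sgk1* (Xetrov72001127), a kinase, had 61.3, 187, 177 and 519 against 21.98, 31.3 and 40.7. The last 5 genes made their largest gain after 4.0 hpf.

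The falling genes fell by less than the risers gained, with a median log2 fold change of -0.49, and 117 of 2477 fell by at least 1 on the log2 scale. Every later library lay below every earlier one for 1996 of them, and for 17% of all genes tested. *cst3* (Xetrov72002125), the protease inhibitor cystatin C, had 413, 759, 915 and 1003 normalised reads at 4.0, 4.5, 4.5 and 5.0 hpf, against 3232, 2321 and 1765 at 2.5, 3.0 and 3.5 hpf (log2 fold change -1.79 ± 0.29, adjusted p = 0.00177). It was lowest at 4.0 hpf and higher again at 5.0 hpf. *gng5* (Xetrov72011826), a G protein subunit, had 556, 615, 571 and 549 normalised reads against 2574, 1748 and 891, and *cks2* (Xetrov72b000261), a subunit of Cdk complexes, had 1278, 1048, 1021 and 918 against 4328, 2543 and 1581. Both were already falling between 2.5 and 3.5 hpf. *dand5* (Xetrov72b000089), an antagonist of Nodal and BMP ligands, had 244, 487, 246 and 274 against 993, 732 and 578, and *frat1* (Xetrov72035352), a positive regulator of Wnt signalling, had 82.2, 113, 118 and 101 against 331, 237 and 203. *crb3* (Xetrov72012409), *ern1* (Xetrov72042149) and *znf706* (Xetrov72035617) had log2 fold changes of -1.55 ± 0.27, -1.37 ± 0.16 and -1.35 ± 0.23. In whole-embryo pools fewer cells with a transcript and less of it per cell cannot be told apart. Loss of a polyA tail can also lower polyA+ reads, and within polyA+ libraries it cannot be told apart from loss of RNA. Levels are also relative to the other transcripts of a library, so gains of other transcripts can lower them too. Which of these applies to a falling gene was not tested. Together the fallers took 36.6 to 37.8% of reads at 4.0-5.0 hpf and 45.2 to 50.9% at 2.5-3.5 hpf.

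Genes of embryonic signalling were examined by list, each set beside the 22.8% of tested genes that were higher, the 19.6% that were lower and their median log2 fold change of 0.007. Members near absent before 4.0 hpf mostly pass the filter on counts through the later libraries, which raises the share and median of such lists. Tested were 18 of 27 Nodal and TGF-beta members with an entry, 22 of 36 for Wnt and organizer and 15 of 28 for BMP. For mesoderm, endoderm, ectoderm, pluripotency and Notch this was 19 of 38, 9 of 20, 22 of 37, 23 of 26 and 18 of 27. Nodal ligands act through Smad2 and FoxH1 to induce mesoderm and endoderm. Of 18 Nodal and TGF-beta genes tested 7 were higher and 4 were lower (median 0.52). *nodal3.1* and *nodal6* had log2 fold changes of 5.05 ± 1.03 and 5.104 ± 0.81, and *nodal3.2* (Xetrov72040922) was 48.2-fold higher in summed counts (exact 95% interval 16.3 to 236). The feedback inhibitor *lefty* (Xetrov72001363) had 2.33, 29.2, 102 and 402 normalised reads at 4.0, 4.5, 4.5 and 5.0 hpf, against 0, 1.57 and 0 at 2.5, 3.0 and 3.5 hpf, a 225-fold difference in summed counts (exact 95% interval 62.0 to 1863). *smad7*, an inhibitory Smad, rose by 1.94 ± 0.23, and *gdf3*, a related ligand whose windows overlapped, by 1.80 ± 0.55. The maternal transcription factor *foxh1* (Xetrov72042612) had 20777, 22429, 20863 and 20314 normalised reads against 37336, 33849 and 31514 (-0.82 ± 0.09).

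Of 22 tested genes of the Wnt pathway and the organizer 11 were higher and 4 were lower (median 1.102). Near-absent genes made up 9 of the 11, so this share and median partly follow from the filter. *sia1* (Xetrov72043417) and *sia2* (Xetrov72b000201), homeobox factors that respond to maternal Wnt signalling, had 4.65, 28.3, 25.8 and 77.2, and 4.65, 76.4, 37.5 and 57.4 normalised reads at 4.0, 4.5, 4.5 and 5.0 hpf, against at most 1.94 at 2.5-3.5 hpf. *sia1* was at least 38.6-fold higher. *wnt8a* (Xetrov72039428), a ligand of the ventral and lateral side, had 1.55, 43.8, 30.0 and 229 normalised reads and no count earlier, and was at least 85-fold higher. *fzd8*, a Wnt receptor, *lhx1* and *fst* (a BMP and activin antagonist) had log2 fold changes of 5.00 ± 1.16, 4.30 ± 1.28 and 3.98 ± 1.13, with windows that overlapped for *lhx1* and *fst*. The maternal *wnt11b* (-0.85 ± 0.14) and *ctnnb1*, which encodes beta-catenin (-0.46 ± 0.10), fell.

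Of 15 BMP and ventral genes 9 were higher and 3 were lower (median 0.62). The homeobox repressors *ventx1.1* (Xetrov72026749), *ventx2.2* (Xetrov72026460) and *ventx3.2* (Xetrov72026724) had no count at 4.0 hpf. They had 19.7 and 10.8, 30.0 and 24.1, and 8.58 and 15.8 normalised reads in the 4.5 hpf libraries and 117, 103 and 94.2 at 5.0 hpf. None had more than 1.94 normalised reads earlier, and each missed the threshold in 4 alternatives, with an adjusted p of up to 0.134. *id3*, a target of BMP signalling, had 28.7, 178, 163 and 1032 against 56.2, 44.7 and 56.2, so its windows overlapped, and its adjusted p was 0.0464, or up to 0.232 in the 6 alternatives where it missed the threshold. The maternal *smad1* (-0.60 ± 0.08) and *bambi* (-0.64 ± 0.14) fell.

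Of 19 mesoderm and FGF genes 12 were higher and 1 was lower (median 0.96). *fgf20* (Xetrov72021944) had 10.1, 31.8, 49.1 and 119 normalised reads at 4.0, 4.5, 4.5 and 5.0 hpf against 0, 0.784 and 1.94, and *fgf8* (Xetrov72026249) had 0, 9.44, 9.99 and 138 against 0, 0.784 and 0, with an adjusted p of 0.0294 that went up to 0.188 in 5 alternatives. The phosphatase *dusp6*, which dampens FGF signalling, rose by 2.69 ± 0.79. Of the receptors *fgfr4* (1.02 ± 0.16), *fgfr2* (0.92 ± 0.22) and *fgfr3* (0.69 ± 0.15) rose and *fgfr1* (-0.52 ± 0.08) fell. Of 9 endoderm genes 4 were higher and none was lower (median 0.03). *mixer* (Xetrov72001353) had 0, 33.5, 16.7 and 125 normalised reads against 0.814, 0 and 0.968, and *sox17b.1* (Xetrov72034479) had 7.76, 30.9, 31.6 and 98.7 against 0.814, 1.57 and 0.968. The *sox17a* replicates at 4.5 hpf differed widely, at 17.2 and 101.

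Of 22 ectoderm genes 7 were higher and 5 were lower (median 0.12). *foxi4.2*, *foxi1*, *tfap2a*, *dlx5* and *grhl3*, transcription factors of epidermis and neural border, reached 402, 188, 297, 164 and 187 normalised reads at 5.0 hpf and had at most 3.103 at 4.0 hpf. All but *dlx5* stood alone at 5.0 hpf, and each of the 5 missed the threshold in 3 to 5 alternatives, with an adjusted p of up to 0.148. *krt18*, a keratin, rose by 1.01 ± 0.21, while another keratin of the list fell (-0.59) and a further keratin was not called. The 5 lower genes also included *cldn4*, a tight junction gene, which fell by 0.69 on the log2 scale. Of 23 pluripotency and early neural genes 9 were higher and 4 were lower (median -0.04). *sox2* (Xetrov72001526) had 6.98, 76.4, 74.1 and 539 normalised reads against 8.14, 8.62 and 6.78, and *foxd3* rose by 4.02 ± 1.15. Both missed the threshold in some alternatives, with an adjusted p of up to 0.0967. The maternal *oct60* (-0.92 ± 0.18), *sox3* (-0.87 ± 0.22) and *sall4* (-0.42 ± 0.07) fell. Of 18 Notch and Hes genes 5 were higher and 1 was lower (median 0.39), among them *hes2* at 2.55 ± 0.56.

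**Figure D4:**
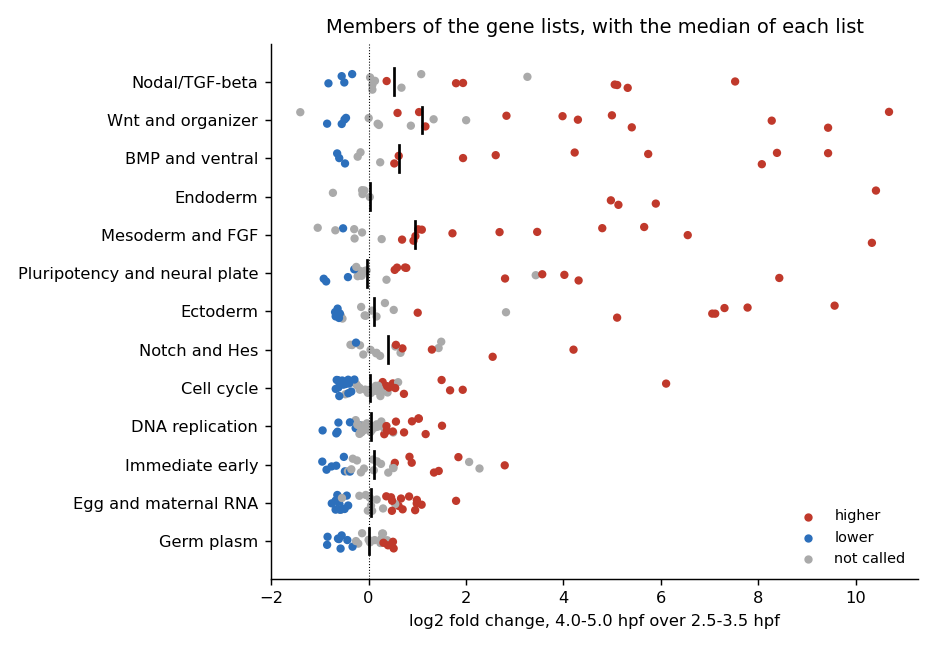
Log2 fold change (4.0-5.0 hpf over 2.5-3.5 hpf) of each tested member of 13 gene lists, in red where higher, blue where lower and grey where not called, with the median of each list as a black bar. Patterning lists hold members with values above 4, and so does the cell cycle list, with *gadd45g* at 6.11. Members of the DNA replication, egg and germ plasm lists run from -0.94 to 1.80.

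Genes of the cell cycle and of DNA replication moved in both directions. Of 48 cell cycle genes 11 were higher and 16 were lower (median 0.02). *gadd45g* (Xetrov72021304), a growth arrest gene, had 10.1, 117, 152 and 260 normalised reads at 4.0, 4.5, 4.5 and 5.0 hpf, against 1.63, 2.35 and 0.968 at 2.5, 3.0 and 3.5 hpf, and *cdkn1a*, a Cdk inhibitor, rose by 1.67 ± 0.25. *ccnb3*, which the study counts among polyadenylated maternal genes, rose by 1.93 ± 0.30. It already had 287, 531 and 910 normalised reads at 2.5, 3.0 and 3.5 hpf. The cyclins *ccna1* (-0.67 ± 0.09) and *ccnb2* (-0.63 ± 0.09), the phosphatase *cdc25a* (-0.60 ± 0.09) and the kinase *wee2* (-0.49 ± 0.13) fell. Of 36 replication genes 11 were higher and 7 were lower (median 0.06). *pcna* rose by 1.51 ± 0.23, *mcm3* by 1.03 ± 0.10 and *pole* by 1.02 ± 0.16, and *dbf4b* (-0.94 ± 0.16), *cdc6* (-0.66 ± 0.09) and *mcm7* (-0.64 ± 0.11) fell. Of 29 immediate early and stress genes 7 were higher, among them *ier5* (1.84 ± 0.40) and *jun* (1.34 ± 0.49, adjusted p = 0.0491), and 7 were lower, among them *atf3* (-0.95 ± 0.17) and *klf11* (-0.86 ± 0.12). Of 35 egg and maternal RNA genes 13 were higher and 10 lower, and of 23 germ plasm genes 4 were higher and 8 lower.

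Among the other list members named above, *lefty*, *wnt8a*, *mixer*, *sox17a*, *gdf3*, *lhx1*, *fst*, *dusp6*, *jun*, *sox3*, *wee2* and *ctnnb1* missed the threshold in at least 1 alternative, *jun* in 8 of them.

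Of the 52 named steep risers 50 were matched to RefSeq genes of the UCB_Xtro_10.0 assembly, which is used here for gene order only. A group of 12 lay within 5 protein-coding genes of the next, in 7 neighbouring pairs. These were *sia1* with *sia2*, *mixer* with *mix1*, *sox17a* with *sox17b.1*, the run *ventx3.2*, *ventx2.2* and *ventx1.1*, and the run of zinc finger genes *znf3*, *znf665* and *znf470*. The counts leave out reads shared between genes, so levels of such close copies rest on the stretches in which they differ and are uncertain. How often other tested genes lie this close is not given here, so nothing is read from the number of pairs.

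What became of the rising genes was read from the Series 2 libraries at 5.5 to 9.5 hpf. Of the 165 near-absent risers 155 had a higher level in at least 1 library after 5.0 hpf, as did 9997 of all 12644 genes tested, with the highest at 5.5 hpf in 45 and at 9.5 hpf in 35. Some were transient. *nodal3.1* and *nodal6* were highest at 5.5 hpf, at 362 and 377 normalised reads, and had 1.83 and 2.74 at 9.5 hpf. *sia2* was at 0 at 9.5 hpf, and *znf3*, *znf470*, *znf33a* and *prdm9* had 16.4 to 31.0 normalised reads there after levels of 1291 to 1766 at 5.5 hpf. *zic1* had 8259 at 9.5 hpf and *sox17a* 5625.

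Series 3 came from another female and colony, in smaller pools of embryos, and was made with another kit and sequencer. Its polyA+ libraries used here held 5764755 to 10297275 non-ribosomal counts, against 25814368 to 32225162 in the 7 Series 2 libraries. These differences between the series cannot be told apart, and fewer counts also leave fewer genes to be called. The cleavages of Series 3 were slower, and 5.0, 5.5 and 6.0 hpf were set against 3.5 and 4.0 hpf as the nearest stages. The study places the MBT of Series 3 after the last of these libraries, so none of them matches the last Series 2 library in this respect. In its polyA+ libraries 282 of 10378 genes tested were higher (2.72%) and 194 were lower (1.87%). Without any filter on counts, the mean of the later window was the higher one for 77 of the 80 steep risers (96.3%), against 57.7% of all genes in both tables, and for 2346 of the 2722 present risers (86.2%). For the 85 less steep near-absent genes it was higher for 45 (52.9%) and lower for 23, and 17 had no reads in either window. Among all genes it was lower for 4771, while 571 had no reads in either window. Genes without reads count as not higher in these percentages, so 52.9% and 57.7% are not directly comparable. Of the 80 steep risers 34 had enough counts to be tested in these libraries, and 25 were called higher. Together the 80 held 133 and 111 counts at 3.5 and 4.0 hpf. They held 192 at 5.0 hpf, 1175 at 5.5 hpf and 13933 at 6.0 hpf, so their rise lay mostly in the 6.0 hpf library. Genes almost without reads in the earlier window can hardly fall, so all genes are not a like base for them. Leaving out the 3.5 hpf or the 5.5 hpf library left 10 and 18 higher genes. Without the 4.0 hpf or the 6.0 hpf library 155 and 169 were higher. With 3.5 or 4.0 hpf left out the earlier window holds a lone library, which is assumed to vary like the later ones.

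The same sets were then followed in the Ribo-Zero libraries. The mean at 5.0 and 6.0 hpf was above that at 3.0 and 4.0 hpf for 76 of the 80 steep risers (95%), against 41.9% of all genes, and 62 of them had a log2 difference of at least 1 after adding 10 normalised reads, as did 0.887% of all genes. Only 14 of the 80 had enough Ribo-Zero counts to be tested, and 2 of these were called higher. A gene almost without reads in the earlier window can hardly fall, so all genes are not a like base. Without Xetrov72003861, described below, the steep risers held 139 and 225 counts at 3.0 and 4.0 hpf. They held 342 at 5.0 hpf and 5846 at 6.0 hpf, so the rise lay mostly in the 6.0 hpf library. Among the other 85 near-absent risers the mean at 5.0 and 6.0 hpf was above for 45 (52.9%), with a log2 difference of at least 1 in 1. Among the 2722 present risers it was above for 1081 (39.7%), with a log2 difference of at least 1 in 9. The present risers took 26.8 and 25.6% of Ribo-Zero reads at 5.0 and 6.0 hpf, against 26.1 and 26.5% at 3.0 and 4.0 hpf. In Series 3 polyA+ libraries they took 12.5, 12.99 and 14.8% at 5.0, 5.5 and 6.0 hpf, against 9.74 and 11.05% at 3.5 and 4.0 hpf. The fallers, at 28.7 and 29.8% of Ribo-Zero reads at 5.0 and 6.0 hpf against 29.7 and 29.1% at 3.0 and 4.0 hpf, likewise differed little. The difference between library types was not tested.

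**Figure D5:**
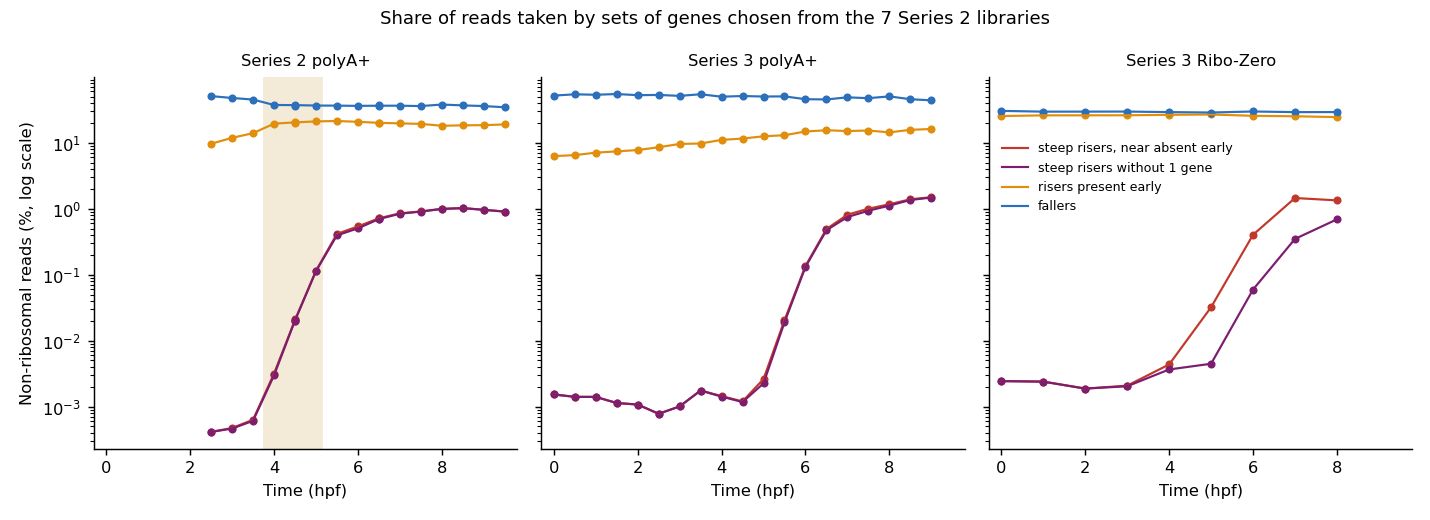
Percent of non-ribosomal reads (log scale) against time for sets of genes chosen from the 7 Series 2 libraries, in Series 2 polyA+, Series 3 polyA+ and Series 3 Ribo-Zero libraries, with a point for each library and, for Series 2, shading over 4.0-5.0 hpf. The present risers climb up to 5.5 hpf in Series 2 and up to 6.5 hpf in Series 3 polyA+. They stay between 24.5 and 26.8% in Ribo-Zero. The steep risers climb in all 3 panels, in Ribo-Zero also without Xetrov72003861.

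A single transcript without a symbol, Xetrov72003861, made up most of the Ribo-Zero reads of the steep risers at 5.0 and 6.0 hpf. It had 6908 and 85794 normalised reads in Ribo-Zero at 5.0 and 6.0 hpf, against 10.97 and 175 at 3.0 and 4.0 hpf, and 92.0, 369 and 1025 in Series 3 polyA+ at 5.0, 5.5 and 6.0 hpf, against 0 and 6.50 at 3.5 and 4.0 hpf. In Series 2 it had 46.5, 102, 94.1 and 487 normalised reads at 4.0, 4.5, 4.5 and 5.0 hpf, against 0, 2.35 and 5.81 at 2.5, 3.0 and 3.5 hpf. With it the steep risers took 0.0321 and 0.403% of Ribo-Zero reads at 5.0 and 6.0 hpf, against 0.00208 and 0.00435% at 3.0 and 4.0 hpf. Without it they took 0.00446 and 0.0595%, against 0.00203 and 0.00365%.

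By edgeR only 5 of 11474 genes were higher in Ribo-Zero (0.0436%) and 2 were lower (0.0174%), with 2 libraries on each side, and 1305 had an unadjusted p under 0.05. Leaving out a library changed the count of higher genes to between 17 and 176, with the lone library of that window assumed to vary like the other 2. The higher ones were Xetrov72003861 (log2 fold change 9.07), *nodal6* (5.69), *klf17* (2.15), *hist1h2aa* (0.52) and *spire1* (0.34), and the first 3 were also higher in Series 2, in which *hist1h2aa* was lower (-1.09) and *spire1* was not called. The lower ones were *wdr36* (-0.45), which was higher in Series 2 (0.59), and *ubc* (-0.35). Among the present risers named above, *kiaa1267* had 3332 and 2856 normalised reads in Ribo-Zero at 5.0 and 6.0 hpf against 2959 and 2635 at 3.0 and 4.0 hpf, whereas *klf17* had 662 and 1838 against 260 and 333, and *sgk1* had 127 and 391.6 against 161 and 154. *mix1* had 0 and 99.2 against 10.97 and 345, the highest value being at 4.0 hpf and so against the order in polyA+ libraries. The windows of *kiaa1267* overlapped, with an adjusted p of 0.449.

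A further set of near-absent genes was not called. A group of 31 near-absent genes had a mean above 20 normalised reads at 4.0-5.0 hpf and missed the threshold, 10 of them with a log2 fold change above 2. *oct91* had 0, 18.02, 8.33 and 87.1 normalised reads at 4.0, 4.5, 4.5 and 5.0 hpf, against 2.44, 0.784 and 3.87 at 2.5, 3.0 and 3.5 hpf (adjusted p = 0.0658), and *nog*, the BMP antagonist noggin, had 6.98, 12.01, 19.1 and 104 against 10.6, 4.70 and 8.72 (adjusted p = 0.0981). Others stood out in the first 4.5 hpf library alone, such as *creb3l1* with 10.1, 63.5, 10.8 and 13.5 against 6.51, 7.05 and 10.7. All 3 were picked after their values were seen. Genes detected at 5.0 hpf alone could not be tested, because 10 counts in at least 3 libraries were required. Genes with few counts at 4.5 hpf were also left out. Among list members, *gsc* had 0, 8, 17 and 89 counts at 4.0, 4.5, 4.5 and 5.0 hpf, and *chrd* had 0, 7, 8 and 134. *sfrp2* had 3, 21, 8 and 258 counts and *ventx3.1* had 4, 9, 40 and 166. None of the 4 had more than 1 count in an earlier library, and their rise was not tested.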

How the data were processed

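Counts of reads per gene were deposited by the authors, who aligned reads with Bowtie (version 0.12.7 in the submitters' processing notes) to *X. tropicalis* gene models, to which ribosomal, mitochondrial and curated sequences were added. The counts keep only reads assigned to a single gene. The second table deposited by the authors holds a normalised signal, the counts scaled to 25000000 reads per library with the ribosomal row left out. Of its 21753 rows, 3 that name no gene (ribosomal, mitochondrial and a reporter) were left out of the tests. Neither table gives positions.

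Series 2 libraries at 4.0-5.0 hpf (4) were compared with those at 2.5-3.5 hpf (3) by edgeR's quasi-likelihood test (edgeR 4.0.16, R 4.3.3) on the counts, with TMM factors, a filter of 10 counts in 3 or more libraries, and Benjamini-Hochberg adjustment over all genes tested at 0.05. Series 3 was fitted separately, with 10 counts in at least 2 libraries. Alternatives used DESeq2 1.42.0 and limma 3.58.1 (log2 of the normalised signal plus 1 or 10), other scalings and filters, time as a slope, and each library left out. Tested on simulated counts for 12644 genes, the fit recovered 86 of 100 genes changed 2-fold and 100 of 100 changed 4-fold, and called 4 others. The simulation gave all genes the same dispersion, put no change with time within a window and changed only genes above a floor of mean counts. It therefore does not cover large rises from near absence or the rise within the later window. Summaries used Python 3.11.15, numpy 2.4.6, pandas 2.3.3, scipy 1.17.1 and matplotlib 3.10.9. Values after ± are the absolute log2 fold change over the square root of the quasi-likelihood F statistic. They are approximate and not standard errors given by the fit, above all for genes with few counts. Ratios of summed counts have exact 95% intervals (Clopper-Pearson). These intervals and the limits on counts of 0 cover counting error only, since the reads carry no molecular identifiers.

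Named genes are those with a symbol: the 12 near-absent risers with no overlap and the highest later mean, the 8 largest rises among genes present earlier, the 8 largest falls among genes above 100 normalised reads, up to 10 near-absent risers seen by 3.5 hpf, and members of the lists. Entries whose symbol reads "unnamed" were not used. A gene that the rule selects is not reported here. Genes, libraries and lists were chosen with earlier results of these data known, and the limit for steep risers was set after the values were seen.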

Additional observations from a re-analysis of the deposited data

Results flagged for a closer look

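The 4 libraries at 4.0-5.0 hpf are not replicates of 1 time. Among 102 named genes examined, 23 had a library set apart from the others by Dixon's ratio (gap to the nearest value over the whole range). In 21 of them it was the 5.0 hpf library. Chance flags about 5% of groups of independent replicates, which these libraries are not. Many of the genes were picked for a late rise, so a 5.0 hpf value set apart is partly built in. The 5.0 hpf library was the highest of the later ones in 76 of 80 steep risers and in 3514 of 12644 genes tested. The 5.0 hpf library was the highest for *admp* (0.852), *stx19* (0.933), *bmp4* (0.848), *mix1* (0.855), *rhov* (0.953), *eomes* (0.913), *nkx6-2* (0.892), *sox2* (0.87), *ier5* (0.846), *foxi4.2* (0.918), *fgf8* (0.928), *ventx3.2* (0.832), *ventx1.1* (0.831), *grhl3* (0.867), *id3* (0.851), *tfap2a* (0.919), *dusp6* (0.844), *foxi1* (0.872), 1012076177 (0.939) and Xetrov72003861 (0.874). It was the lowest for *sall4* (0.839). The first 4.5 hpf library was the highest for *dand5* (0.876), with 487 normalised reads against 246 in its replicate, and for *oct60* (0.918), with 7460 against 4864.

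The reporter row katushka, which took no part in any comparison, held 4361 to 5790 counts at 4.0-5.0 hpf and 5499 to 8496 counts at 2.5-3.5 hpf. It had no count in the Series 3 polyA+ libraries and at most 28 in the Ribo-Zero libraries.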

How the results depend on the processing

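No paired analysis was possible because the replicate numbers only order libraries of different times within a window. The 2887 higher genes ranged from 1923 to 3005, and the 2477 lower from 1524 to 2600, when single libraries were left out. The lower count was 1564 with library totals, 1299 with limma and a pseudocount of 1 and 1363 with 10. The 165 near-absent risers ranged from 78 to 183 without single libraries and were 30 with a filter of 50 counts. The 80 steep risers ranged from 25 to 85 without single libraries, and were 33 with the 4.5 hpf libraries summed, 29 with 50 counts, 53 and 15 with limma (pseudocounts 1 and 10) and 156 with no filter; these alternatives were chosen after seeing the data. With a limit of 5 normalised reads 28 genes were first seen at 3.5 hpf and 0 at 5.0 hpf, and with 20 there were 0 at 3.5, 27 at 4.0 and 29 at 5.0 hpf. In Series 3 polyA+ the 282 higher genes were 93 at the clock times of Series 2 and ranged from 10 to 371 without single libraries. In Ribo-Zero the 5 higher genes were 2 with library totals and ranged from 17 to 176. Of the 102 named genes examined here 67 kept their call in every alternative that tested them, and none of 1500 values changed sign. Calls were lost for 26 genes without 2.5 hpf, for 25 without 3.0 hpf and for 20 and 27 with limma (pseudocounts 1 and 10). The cause was not tested.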
